A study of Mus musculus with 27 samples.

Results

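The genes for collagen chains in mouse liver were followed across vehicle and 8 doses of TCDD (2,3,7,8-tetrachlorodibenzo-p-dioxin), a persistent pollutant that binds the aryl hydrocarbon receptor (AhR). They were chosen by symbol alone, as every gene named Col, a number, the letter a and a number, which gave 44 of the 41388 gene identifiers in the count files. Of these, 34 passed the filter on low counts, which 15121 genes passed in all. The members comprised 11 fibrillar, 6 basement membrane, 6 beaded filament, 9 FACIT (fibril-associated) and 12 other chains, of which 9, 6, 5, 5 and 9 passed. Liver RNA was sequenced from 27 female C57BL/6 mice without ovaries (ovariectomized), 3 in each group, with a labelled age of 120 days. Groups received TCDD in sesame oil by gavage, at 0.01 or 0.03 µg/kg, 0.1 or 0.3 µg/kg, 1 or 3 µg/kg, or 10 or 30 µg/kg, and the vehicle group received sesame oil alone. The labels give a dose every 4 days for 92 days, although 1 label field also says daily. All groups, vehicle included, lacked ovaries, which limits the livers as a model to animals without ovarian hormones. The series title names liver fibrosis among its subjects, and the question here was which collagen chains changed, and from which dose.

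Collagens are trimers of alpha chains, and several types need particular combinations of chains. Collagens I, III and V are fibrillar collagens of scar tissue, collagen IV builds the sheets of basement membranes, collagen VI forms beaded filaments around cells, and FACIT collagens sit on the surface of fibrils. In fibrotic liver, fibrillar collagen is made mainly by activated stellate cells and portal fibroblasts, whereas collagen XVIII, the source of endostatin, is made in large part by hepatocytes. In whole tissue, a change in the number of cells of a type and a change of RNA per cell cannot be told apart.

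Total counts ranged from 11050391 to 30873586 in 26 libraries and were 434011 in the second 0.3 µg/kg library, where 1 read equals 2.87 CPM. CPM here are counts scaled by library total and TMM factor. Ranges over the 0.01 to 0.3 µg/kg livers leave out that library and cover 11 livers. The index sequences in the deposited names fall into 2 sets, one for vehicle to 0.1 µg/kg and one for 0.3 to 10 µg/kg, and the 30 µg/kg libraries carry the vehicle indices. Against vehicle, dose and index set cannot be told apart at 0.3 to 10 µg/kg, whereas the 30 µg/kg against vehicle and 1 against 0.3 µg/kg comparisons each stay within 1 set. The p-values rest on the spread between livers within groups, estimated over all 27 libraries in 1 fit. The design text calls the 3 livers of a group biological replicates.

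The 3 promoter windows shown next belong to the chain with the largest change and to neighbouring pairs of collagen IV genes read in opposite directions, of which one pair changed far more than the other. They run from 250 bases before to 50 bases after the start of the gene in RefSeq (GRCm38.p6), 5′ to 3′ on the strand of the gene. The capital at position 251 is that start. In the Col4a4 and Col4a1 windows the other single capital is the annotated start of the partner, Col4a3 or Col4a2, on the opposite strand. The run of 5 capitals is GCGTG, the core of the AhR response element, which was searched on both strands.
Col9a2: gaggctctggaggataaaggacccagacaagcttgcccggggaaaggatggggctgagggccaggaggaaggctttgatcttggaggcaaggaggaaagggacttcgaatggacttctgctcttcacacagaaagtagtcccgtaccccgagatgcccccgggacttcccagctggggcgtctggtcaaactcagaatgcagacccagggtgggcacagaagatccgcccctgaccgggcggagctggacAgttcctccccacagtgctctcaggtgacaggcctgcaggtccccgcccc
Col4a4: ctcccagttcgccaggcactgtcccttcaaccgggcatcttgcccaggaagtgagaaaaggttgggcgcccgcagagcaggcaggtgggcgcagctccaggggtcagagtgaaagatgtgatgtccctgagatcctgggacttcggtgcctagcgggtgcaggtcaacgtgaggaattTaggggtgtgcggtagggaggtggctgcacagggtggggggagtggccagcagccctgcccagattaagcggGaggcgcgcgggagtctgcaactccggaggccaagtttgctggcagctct
Col4a1: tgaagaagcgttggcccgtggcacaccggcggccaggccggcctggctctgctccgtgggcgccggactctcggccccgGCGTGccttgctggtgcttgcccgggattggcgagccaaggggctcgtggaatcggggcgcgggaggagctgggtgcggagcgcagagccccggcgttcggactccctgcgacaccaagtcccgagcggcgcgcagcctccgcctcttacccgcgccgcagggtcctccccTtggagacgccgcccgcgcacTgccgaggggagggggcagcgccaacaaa
The windows lie at chr4:121039316-121039615 (plus strand), chr1:82586800-82587099 (minus strand) and chr8:11312777-11313076 (minus strand). The annotated starts of Col4a3 and Col4a4 are 72 bases apart, and those of Col4a1 and Col4a2 are 21 bases apart. GCGTG occurred once in the Col4a1 window and was not in the windows of Col9a2 and Col4a4. It was in 10 of the 38 windows found for 35 collagen genes and in 32.6% of all 32544 windows. The longer TNGCGTG, each match of which contains a GCGTG, was in 0 of the 38 windows and in 5.09% of all windows. These counts describe letters within 300 bases and nothing farther away.

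At 30 µg/kg against vehicle, 15 of the 34 tested chains were higher and 4 were lower at an adjusted p below 0.05 in edgeR's quasi-likelihood test, while 37.4% of all tested genes were called, 18% as higher and 19.4% as lower. The median log2 fold change was 0.80 over the chains and -0.01 over all tested genes. By class it was 1.57 for basement membrane, 0.92 for beaded filament, 0.47 for fibrillar and 0.24 for FACIT chains. Higher calls were made for 5 of 6 basement membrane chains, 4 of 5 beaded filament chains, 4 of 9 fibrillar chains, 2 of 5 FACIT chains and 0 of 9 others. The lower calls were the fibrillar chains Col5a3 and Col27a1, the FACIT chain Col20a1 and, among the others, Col18a1. In all 19 called chains the 3 livers of 30 µg/kg did not overlap the 3 of vehicle, and 16 of the 34 chains lay wholly above and 6 wholly below vehicle. Over all tested genes 49.8% did not overlap, 23.9% above and 25.9% below. These shares were not counted for the other doses, at which a lack of overlap is also given below. Among the 15 higher chains, the first 30 µg/kg liver had the highest value of its group in 13 and the second the lowest in 9.

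**Figure D1:**
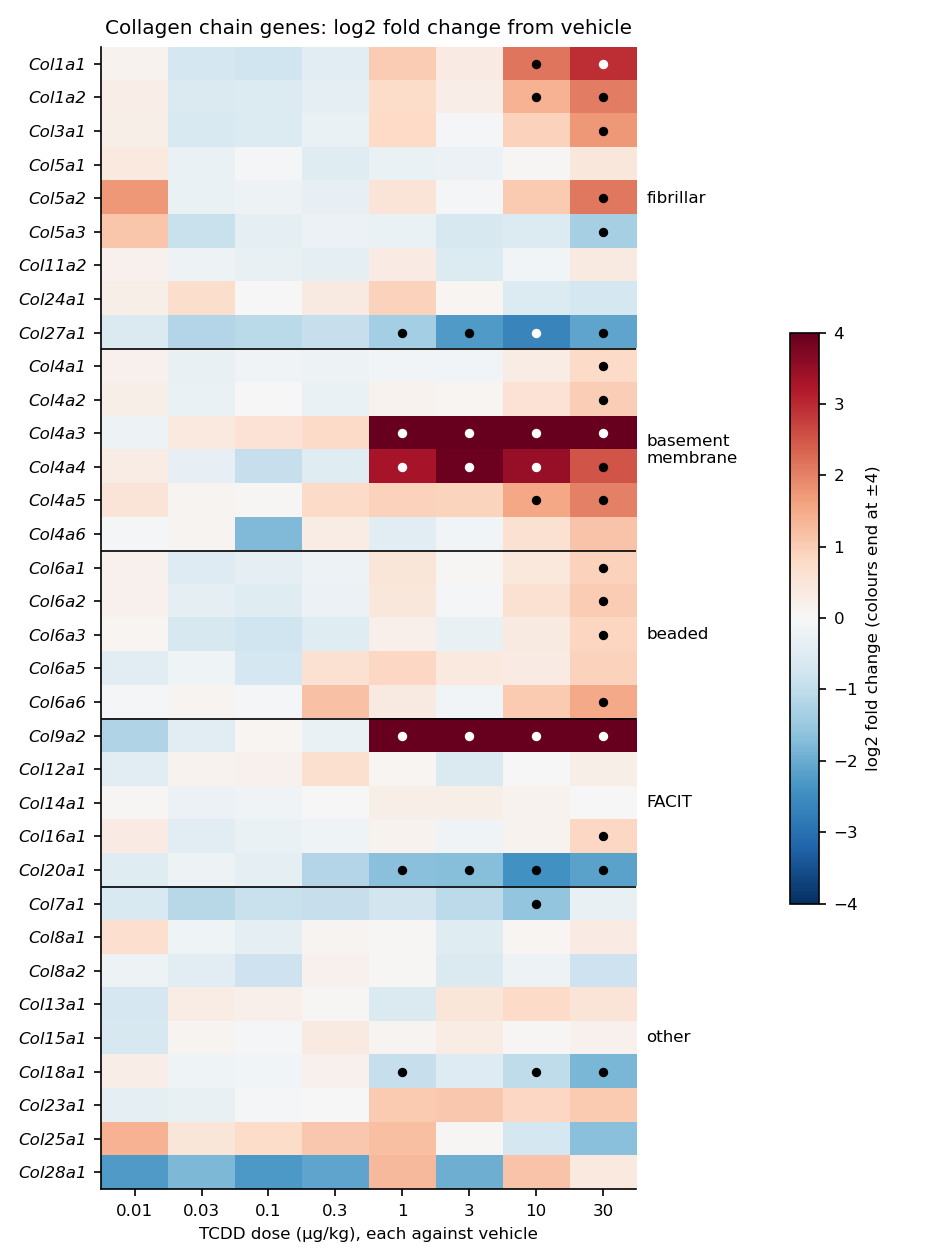
Heat map of the log2 fold change of the 34 tested collagen chain genes (rows, by class) at each TCDD dose against vehicle (columns, µg/kg). Red is higher and blue lower than vehicle, colours end at 4 in either direction, and a dot marks an adjusted p below 0.05. Dots begin at 1 µg/kg, for Col4a3, Col4a4, Col9a2, Col27a1, Col20a1 and Col18a1, and number 19 at 30 µg/kg.

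Below 1 µg/kg no chain was called, 0 of 34 at each of 0.01, 0.03, 0.1 and 0.3 µg/kg, where 0%, 0.0397%, 0.192% and 1.18% of all genes were called (edgeR). Those were 0%, 0.0331%, 0.145% and 0.622% as higher and 0%, 0.00661%, 0.0463% and 0.562% as lower. At an unadjusted p below 0.05 there were 3 higher and 0 lower chains at 0.01 µg/kg, 0 and 4 at 0.03 µg/kg, 0 and 4 at 0.1 µg/kg, and 0 and 2 at 0.3 µg/kg (edgeR). By that cutoff, 379 of all 15121 tested genes were higher and 345 lower at 0.01 µg/kg, and 180 and 294 at 0.03 µg/kg. The counts were 365 and 401 at 0.1 µg/kg, and 700 and 826 at 0.3 µg/kg. DESeq2, with adjusted p, called 0 chains at each of these doses. At 1 µg/kg 3 chains were higher and 3 lower (19.4% of all genes called, 11.1% higher and 8.21% lower). At 3 µg/kg 3 were higher and 2 lower (10.1% called, 5.17% higher and 4.89% lower), and at 10 µg/kg 6 were higher and 4 lower (22.5% called, 11.3% higher and 11.2% lower). Of the 15 chains higher at 30 µg/kg, Col9a2, Col4a3 and Col4a4 were called at every dose from 1 µg/kg, Col1a1, Col1a2 and Col4a5 from 10 µg/kg, and the other 9 at 30 µg/kg alone. Of the 4 lower chains, Col27a1 and Col20a1 were called from 1 µg/kg, Col18a1 from 10 µg/kg and also at 1 µg/kg, and Col5a3 at 30 µg/kg alone. Over the rank of the dose 15 chains rose and 4 fell (46.6% of all genes called, 23.3% in each direction).

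Collagen IX, a FACIT collagen of cartilage, is built from the chains of Col9a1, Col9a2 and Col9a3. Col9a2 (ENSMUSG00000028626, chr4:121039385-121055322, plus strand) changed most of all members. It had 0.475, 0.964 and 0.870 CPM in 1 µg/kg livers, 13.4, 14.5 and 13.8 CPM in 3 µg/kg livers, 125, 211 and 241 CPM at 10 µg/kg and, at 30 µg/kg, 467, 429 and 333 CPM, against 0, 0.0523 and 0.0802 CPM in vehicle livers. These groups overlapped neither vehicle nor one another, and the 11 livers of 0.01 to 0.3 µg/kg lay between 0 and 0.175 CPM. The 3 vehicle libraries held 3 counts of Col9a2 together, so ratios of pooled counts are given with exact 95% intervals, which cover counting error only. The ratio to vehicle was 19.1 (6.16 to 95.5) at 1 µg/kg, 327 (112 to 1591) at 3 µg/kg, 4407 (1508 to 21373) at 10 µg/kg and 9826 (3362 to 47651) at 30 µg/kg. The adjusted p-values (edgeR) were 0.000318, 1.72e-11, 2.16e-15 and 4.22e-16.

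The partner chains of collagen IX showed no such change. Col9a1 had no count in any of the 27 libraries. Col9a3, too low to pass the filter, had 0.419, 0.230 and 0.213 CPM at 30 µg/kg, against 0.298, 0.314 and 0.361 CPM in vehicle livers, which overlap, and at most 0.464 CPM in any liver. Among 8 chondrocyte markers, Acan and Matn1, for the cartilage matrix proteins aggrecan and matrilin, were at 0 in every library, and 2 passed the filter. The summed level of the 8 was 1.33 to 2.84 CPM at 30 µg/kg, against 3.92 to 5.03 CPM in vehicle. Of the pair that passed, Cnmd, for the cartilage glycoprotein chondromodulin, had 0.0839, 0.614 and 0.266 CPM at 30 µg/kg, against 4.33, 1.93 and 4.05 CPM in vehicle livers, and fell by 3.37 on the log2 scale (adjusted p = 5.15e-06, edgeR). The other, Ihh, for a hedgehog ligand of growth plate cartilage, had 1.09, 1.92 and 1.01 CPM at 30 µg/kg, against 0.634, 1.78 and 0.762 CPM in vehicle livers, which overlap, and was not called (log2 fold change 0.39, adjusted p = 0.698, edgeR). Col2a1 and Col10a1, cartilage collagens of other classes, had no counts. The nearest tested gene on one side of Col9a2, the protease gene Zmpste24, lies 3915 bases away and averaged 76.9 CPM at 30 µg/kg and 65.0 CPM in vehicle (log2 fold change 0.24, adjusted p = 0.198, edgeR). The nearest on the other side, Smap2, lies 22138 bases away and averaged 47.3 CPM at 30 µg/kg and 62.2 CPM in vehicle (log2 fold change -0.40, adjusted p = 0.0116, edgeR). Beyond Smap2, Zfp69, 87686 bases from Col9a2, was higher at 1 and 30 µg/kg (log2 fold change 0.88 and 0.99, adjusted p = 0.0221 and 0.00487, edgeR). Beyond Zmpste24, Rlf, 90051 bases from Col9a2, was called at neither of these doses (adjusted p = 0.210 and 0.107, edgeR). Neighbouring genes were examined after the values of the chains had been seen.

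Collagen IV of most basement membranes is made of the chains of Col4a1 and Col4a2. Col4a3, Col4a4 and Col4a5 form another network, known from the filtering membrane of the kidney and affected in Alport syndrome, and Col4a6 joins Col4a5 in a further one. Col4a3 (ENSMUSG00000079465, chr1:82586921-82722059, plus strand) had 31.8, 29.3 and 16.0 CPM in 1 µg/kg livers, 37.7, 23.5 and 33.9 CPM in 3 µg/kg livers, 28.3, 31.1 and 16.6 CPM at 10 µg/kg and, at 30 µg/kg, 12.2, 16.2 and 7.07 CPM, against 0.261, 0.261 and 0.321 CPM in vehicle livers. None of these dosed groups overlapped vehicle, and the 11 livers of 0.01 to 0.3 µg/kg had 0.136 to 0.603 CPM. The log2 fold change was 6.48 ± 0.43 (SE) at 1 µg/kg, 6.78 ± 0.43 at 3 µg/kg, 6.46 ± 0.43 at 10 µg/kg and 5.37 ± 0.43 at 30 µg/kg, with adjusted p-values of 1.15e-10, 3.05e-11, 4.40e-11 and 7.64e-10 (edgeR). The gene C430014B12Rik on the other strand covers 5.65% of the exonic bases of Col4a3 and reached at most 1.77 CPM in any library.

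Col4a4 (ENSMUSG00000067158, chr1:82448423-82586849, minus strand) also stepped up at 1 µg/kg. It had 6.77, 7.39 and 4.13 CPM in 1 µg/kg livers, 10.4, 8.99 and 9.16 CPM in 3 µg/kg livers, 8.38, 8.07 and 4.76 CPM at 10 µg/kg and, at 30 µg/kg, 3.86, 4.57 and 2.18 CPM, against 1.04, 0.366 and 0.401 CPM in vehicle livers. None of these dosed groups overlapped vehicle. The log2 fold change was 3.29 ± 0.35 (SE) at 1 µg/kg, 3.92 ± 0.36 at 3 µg/kg, 3.5 ± 0.35 at 10 µg/kg and 2.51 ± 0.35 at 30 µg/kg, with adjusted p-values of 4.93e-07, 1.90e-08, 4.71e-08 and 4.27e-06 (edgeR). Per kb of exons, Col4a3 averaged 2.58 CPM at 1 µg/kg and 0.0282 CPM in vehicle, and Col4a4 0.575 CPM at 1 µg/kg and 0.0569 CPM in vehicle. Reads of Col4a3 per read of Col4a4 were 4.69, 3.97 and 3.87 at 1 µg/kg and 3.17, 3.54 and 3.24 at 30 µg/kg, against 0.250, 0.714 and 0.800 in vehicle livers.

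The step was also tested against the next lower dose, in a comparison added after the data had been seen. At 1 against 0.3 µg/kg, 4 chains were higher and 1 lower (7.15% of all genes called, 5.1% higher and 2.05% lower). Col4a3 differed by 5.73 on the log2 scale (adjusted p = 1.49e-07) and Col4a4 by 3.77 (adjusted p = 3.04e-05, both edgeR), and these 2 calls held in all 15 alternatives of that comparison. The other higher calls were Col9a2 and Col1a2, and the lower one was Col18a1. The Col1a2 call was lost in 9 of its 15 alternatives, that of Col9a2 without the first 0.3 µg/kg library (adjusted p = 0.119), and that of Col18a1 without the second, shallow one (adjusted p = 0.0724). Rhbdd1 and Mff, the nearest tested genes on either side of the pair, lie 3057 and 2831 bases away. At 1 µg/kg against vehicle they differed by 0.01 and 0.26 on the log2 scale and were not called (adjusted p = 0.975 and 0.184, edgeR). At 30 µg/kg Rhbdd1 rose by 0.73 (adjusted p = 0.00321) and Mff by 0.35 (adjusted p = 0.0399, both edgeR). Beyond Rhbdd1, Irs1 was lower at 1 µg/kg (log2 fold change -0.58, adjusted p = 0.0100) and not called at 30 µg/kg (adjusted p = 0.0708, both edgeR). Beyond Mff, Gm17764 was called at neither dose (adjusted p = 0.736 and 0.527, edgeR).

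Col4a5, whose chain belongs to the same network, rose at higher doses. It had 4.88, 5.61 and 9.70 CPM at 10 µg/kg and, at 30 µg/kg, 11.7, 6.99 and 9.30 CPM, against 1.42, 3.14 and 2.41 CPM in vehicle livers. Neither dose overlapped vehicle, and the log2 fold change was 1.55 ± 0.34 (SE, adjusted p = 0.00167) at 10 µg/kg and 2.02 ± 0.34 (adjusted p = 4.74e-05, edgeR) at 30 µg/kg. At 1 µg/kg it was 0.93 ± 0.34, without a call (adjusted p = 0.0576, edgeR). Col4a6, which starts 1309 bases from Col4a5 in the opposite direction, had 0.839, 0.115 and 0.531 CPM at 30 µg/kg and 0.373, 0.105 and 0.160 CPM in vehicle livers, which overlap, and was not called (log2 fold change 1.13 ± 0.78, adjusted p = 0.270, edgeR).

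**Figure D2:**
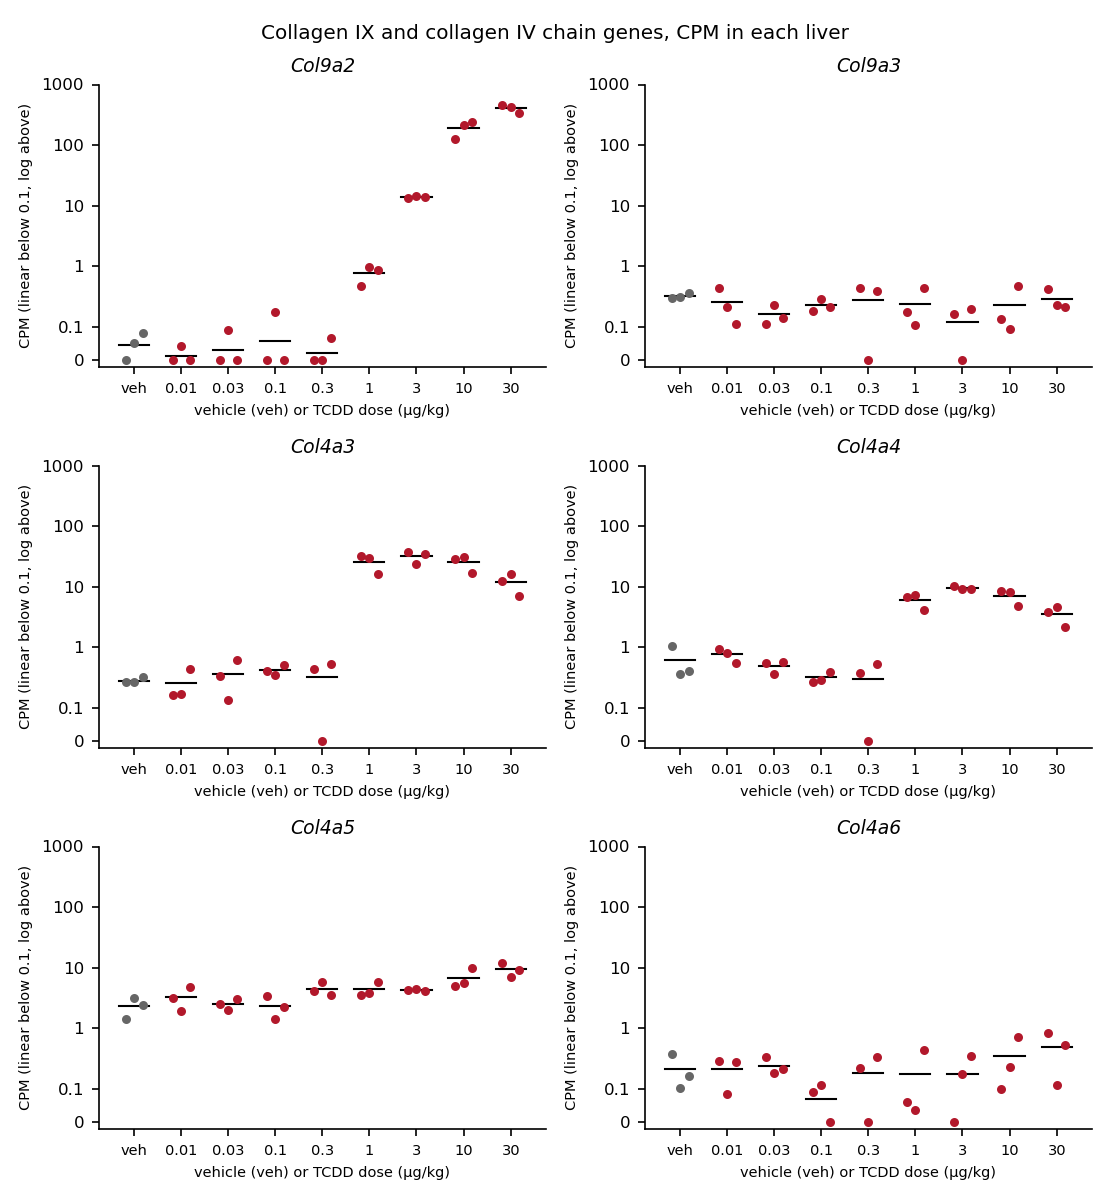
CPM of Col9a2, Col9a3, Col4a3, Col4a4, Col4a5 and Col4a6 in each liver (points) by group, with the group mean as a line. The vertical axis is linear below 0.1 CPM and logarithmic above. Col9a2 climbs at each dose from 1 µg/kg, Col4a3 and Col4a4 step up at 1 µg/kg and average less at 30 µg/kg than at 3 µg/kg, and Col9a3 stays at or under 0.464 CPM. The 30 µg/kg libraries carry another index set than those of 1 and 3 µg/kg.

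The widespread pair changed less. Col4a1 had 94.9, 51.9 and 57.6 CPM at 30 µg/kg, against 37.2, 36.7 and 46.6 CPM in vehicle livers (log2 fold change 0.76 ± 0.27, adjusted p = 0.0277, edgeR). This call was lost without the first 30 µg/kg liver (adjusted p = 0.206), the first vehicle liver (0.0796) or the second vehicle liver (0.0838), and with no filter on low counts (0.0510). Col4a2 had 63.5, 38.6 and 41.7 CPM at 30 µg/kg, against 24.3, 20.3 and 27.4 CPM in vehicle livers (log2 fold change 1.00 ± 0.25, adjusted p = 0.00254, edgeR). Neither overlapped vehicle. Reads of Col4a2 per read of Col4a1 lay between 0.669 and 0.745 at 30 µg/kg and between 0.553 and 0.653 in vehicle livers.

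Collagen I, the main fibre of scar tissue, is made of the chains of Col1a1 and Col1a2. Col1a1 (ENSMUSG00000001506, chr11:94936224-94953042, plus strand) had 41.1, 29.6 and 82.1 CPM at 10 µg/kg and, at 30 µg/kg, 149.7, 54.7 and 62.5 CPM, against 12.2, 7.79 and 14.6 CPM in vehicle livers. Both doses lay wholly above vehicle, with log2 fold changes of 2.14 ± 0.47 (SE, adjusted p = 0.00245) and 2.94 ± 0.48 (adjusted p = 7.25e-05, edgeR). Its range over the 11 livers of 0.01 to 0.3 µg/kg was 4.88 to 21.2 CPM. Col1a2 (ENSMUSG00000029661, chr6:4504814-4541544, plus strand) had 44.8, 38.1 and 74.4 CPM at 10 µg/kg and, at 30 µg/kg, 123, 55.9 and 67.3 CPM, against 22.04, 15.4 and 22.3 CPM in vehicle livers. Its log2 fold changes were 1.39 ± 0.31 (adjusted p = 0.00216) and 2.04 ± 0.31 (adjusted p = 2.24e-05, edgeR), again without overlap.

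The chains of collagen I did not keep a fixed ratio. Reads of Col1a1 per read of Col1a2, not corrected for length, were 0.917, 0.776 and 1.10 at 10 µg/kg and 1.21, 0.980 and 0.929 at 30 µg/kg, against 0.555, 0.507 and 0.652 in vehicle livers. Both doses lay above vehicle. Col3a1, the chain of collagen III, had 208, 84.1 and 97.6 CPM at 30 µg/kg, against 46.5, 25.1 and 44.4 CPM in vehicle livers, which do not overlap (log2 fold change 1.75 ± 0.37, adjusted p = 0.000733, edgeR). At 10 µg/kg it had 62.0, 51.6 and 109 CPM and was not called (log2 fold change 0.94 ± 0.36, adjusted p = 0.0663, edgeR). Reads of Col3a1 per read of Col1a1 were 1.51, 1.75 and 1.32 at 10 µg/kg and 1.39, 1.54 and 1.56 at 30 µg/kg, against 3.80, 3.23 and 3.05 in vehicle livers, so both doses lay below vehicle.

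The chains of collagen V, which regulates the width of collagen I fibrils, differed in their calls. Col5a2 had 25.3, 8.37 and 14.3 CPM at 30 µg/kg, against 4.997, 2.77 and 3.37 CPM in vehicle livers (log2 fold change 2.10 ± 0.52, adjusted p = 0.00331, edgeR). Col5a3 had 13.04, 17.7 and 4.68 CPM at 30 µg/kg, against 32.3, 22.6 and 34.6 CPM in vehicle livers (log2 fold change -1.33 ± 0.37, adjusted p = 0.00697, edgeR). Neither overlapped vehicle. Col5a1, their partner, had 30.1, 17.7 and 19.2 CPM at 30 µg/kg, against 16.9, 13.6 and 18.01 CPM in vehicle livers, which overlap, and was not called (log2 fold change 0.47 ± 0.21, adjusted p = 0.0854, edgeR). It was called as higher with RLE factors (adjusted p = 0.0392, edgeR), with upper-quartile factors (0.0428, edgeR), by DESeq2 (0.0487) and without the second 30 µg/kg liver (0.0360, edgeR). Reads of Col5a3 per read of Col5a2 were 0.515, 2.11 and 0.327 at 30 µg/kg, against 6.46, 8.17 and 10.3 in vehicle livers. At 0.01 µg/kg the livers of the group differed, with 2.58, 16.8 and 18.3 CPM of Col5a2 and 39.9, 101 and 52.5 CPM of Col5a3. Neither was called there (adjusted p = 0.709 and 0.743, edgeR), and without the first 0.01 µg/kg liver Col5a2 was, with a log2 fold change of 2.24 (adjusted p = 0.0117, edgeR).

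**Figure D3:**
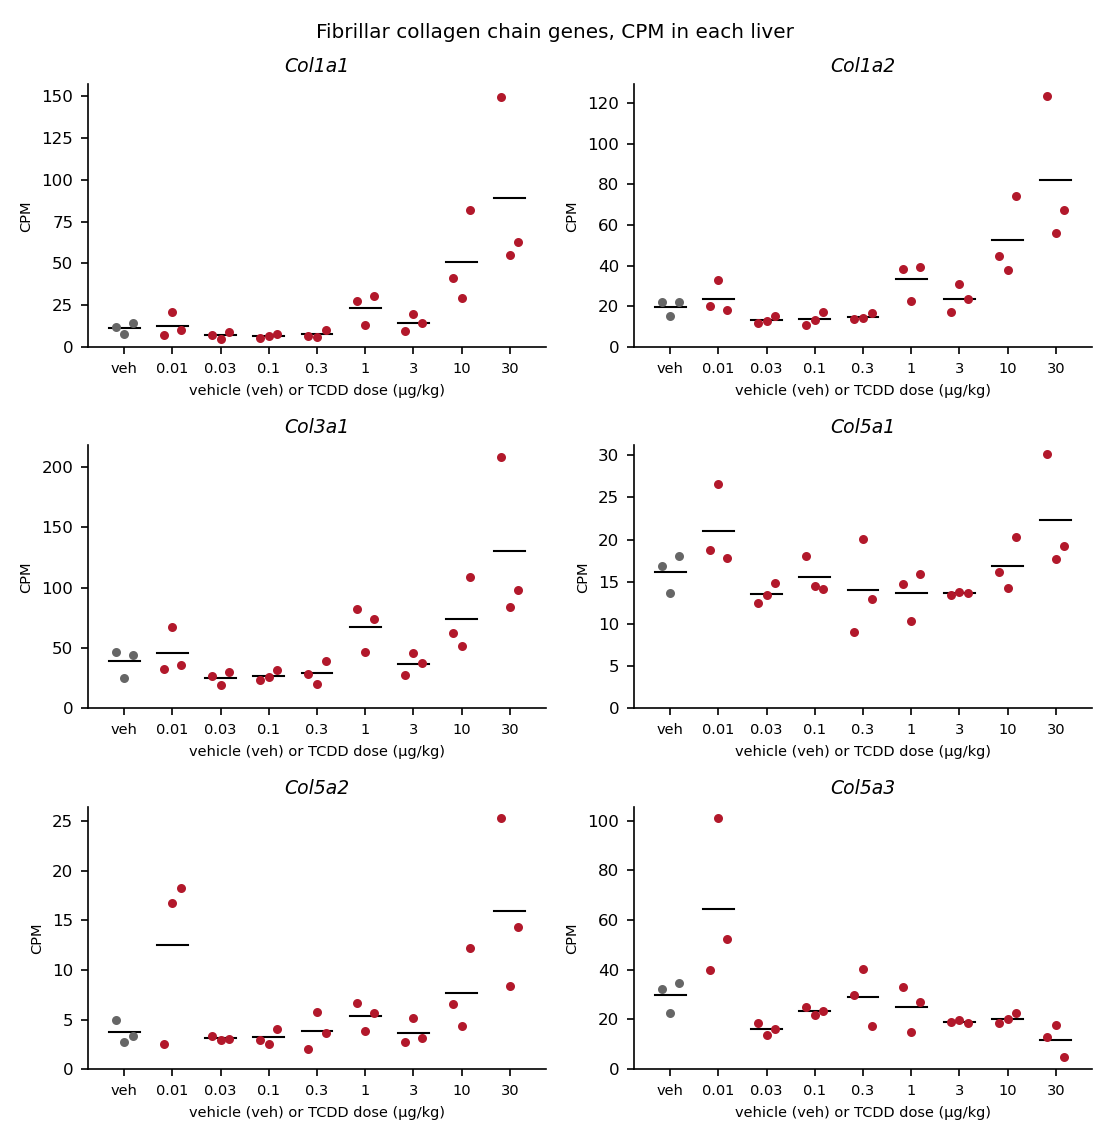
CPM of the fibrillar chain genes Col1a1, Col1a2, Col3a1, Col5a1, Col5a2 and Col5a3 in each liver (points) by group, on linear axes that start at 0, with the group mean as a line. The means of Col1a1, Col1a2 and Col3a1 are highest at 30 µg/kg, where the first liver stands above the others, and the mean of Col5a3 is lowest there.

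Of the other fibrillar chains, Col27a1, known from cartilage, fell. It had 9.92, 6.64 and 15.5 CPM at 1 µg/kg, 9.29, 3.53 and 4.20 CPM in 3 µg/kg livers, 4.34, 3.66 and 5.14 CPM at 10 µg/kg and, at 30 µg/kg, 8.51, 4.22 and 6.11 CPM, against 22.3, 21.6 and 37.3 CPM in vehicle livers. Each of these doses lay below vehicle without overlap, with log2 fold changes of -1.35, -2.27, -2.63 and -2.11 (adjusted p = 0.00550, 7.37e-05, 5.36e-06 and 3.47e-05, edgeR). The 11 livers of 0.01 to 0.3 µg/kg had 9.58 to 23.8 CPM, with no call. Those of 0.03, 0.1 and 0.3 µg/kg also lay below all 3 vehicle livers, which are the same for each dose. The share of all genes that did so at these doses was not counted. Col11a2, of cartilage fibrils, averaged 1.32 CPM at 30 µg/kg and 1.03 CPM in vehicle, and Col24a1 0.188 CPM at 30 µg/kg and 0.312 CPM in vehicle. Neither was called at any dose, and Col11a1 had no counts.

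The beaded filament chains of collagen VI were higher at 30 µg/kg by smaller factors. Col6a1 had 29.4, 17.6 and 19.8 CPM at 30 µg/kg, against 13.2, 9.25 and 12.7 CPM in vehicle livers (log2 fold change 0.92 ± 0.24, adjusted p = 0.00418, edgeR). Col6a2 had 17.4, 12.7 and 12.1 CPM at 30 µg/kg, against 8.65, 5.28 and 6.82 CPM in vehicle livers (log2 fold change 1.02 ± 0.28, adjusted p = 0.00521, edgeR). Col6a3 had 30.2, 16.9 and 16.7 CPM at 30 µg/kg, against 12.1, 9.62 and 13.7 CPM in vehicle livers (log2 fold change 0.85 ± 0.31, adjusted p = 0.0364, edgeR). These partners in 1 trimer did not overlap vehicle. Col6a6, an alternative to Col6a3 in the trimer, averaged 0.775 CPM at 30 µg/kg and 0.269 CPM in vehicle (log2 fold change 1.52 ± 0.57, adjusted p = 0.0396, edgeR). The Col6a3 call was lost without the first 30 µg/kg liver (adjusted p = 0.237), the first vehicle liver (0.0721) or the second (0.124) and with no filter on low counts (0.0692), and the Col6a6 call without any 1 of 5 of the 6 livers (adjusted p from 0.0526 to 0.155). Col6a5 was not called at 30 µg/kg (log2 fold change 0.92, adjusted p = 0.219, edgeR), and Col6a4 had 6 counts in all libraries together. All 5 tested chains of the class rose over the rank of the dose, as did 23.3% of all genes. Without the first 30 µg/kg liver Col6a3, Col6a5 and Col6a6 were no longer called in that trend (adjusted p = 0.124, 0.0927 and 0.0530, edgeR), and Col6a5 lost its call in 8 of the settings tried.

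Among the FACIT chains other than Col9a2, Col14a1, which binds to fibrils, was not called at any dose. It had 83.4, 87.1 and 62.4 CPM at 30 µg/kg, against 87.3, 60.1 and 82.5 CPM in vehicle livers, which overlap (log2 fold change 0.02 ± 0.19, adjusted p = 0.954, edgeR). Col16a1 averaged 8.68 CPM at 30 µg/kg and 4.86 CPM in vehicle (log2 fold change 0.83 ± 0.31, adjusted p = 0.0355, edgeR). This call was lost without the first 30 µg/kg liver (adjusted p = 0.257), the first vehicle liver (0.0718) or the second (0.134). Col20a1 had 0.416, 1.11 and 1.36 CPM at 1 µg/kg, 1.14, 0.617 and 1.04 CPM in 3 µg/kg livers, 0.634, 0.371 and 0.717 CPM at 10 µg/kg and, at 30 µg/kg, 0.713, 0.806 and 0.584 CPM, against 2.98, 2.51 and 3.85 CPM in vehicle livers. The 11 livers of 0.01 to 0.3 µg/kg had 1.38 to 3.65 CPM, and the shallow 0.3 µg/kg library, not among them, had 0. Col20a1 fell at each dose from 1 µg/kg without overlap, by 2.13 ± 0.34 on the log2 scale at 30 µg/kg (adjusted p = 2.21e-05, edgeR). The adjoining gene Chrna4, 17 bases away, was lower at 30 µg/kg as well (log2 fold change -3.80, adjusted p = 0.00203, edgeR), as was BX649560.1, which shares 1.54% of the exonic bases of Col20a1 (log2 fold change -1.27, adjusted p = 6.32e-05, edgeR). Col12a1 averaged 3.04 CPM at 30 µg/kg and 2.56 CPM in vehicle without a call, and Col19a1 and Col22a1 had 1 and 37 counts in all libraries together.

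Col18a1 (ENSMUSG00000001435, chr10:77052178-77166548, minus strand) had the highest level per kb of all members in vehicle livers and fell. It had 719, 766 and 740.5 CPM at 1 µg/kg, 1001, 966 and 1000.1 CPM in 3 µg/kg livers, 790.0, 645 and 657 CPM at 10 µg/kg and, at 30 µg/kg, 319, 545 and 336 CPM, against 1369, 1393 and 1466 CPM in vehicle livers. Each of these doses lay below vehicle without overlap. The log2 fold change was -0.93 ± 0.23 at 1 µg/kg (adjusted p = 0.00647), -0.51 ± 0.23 at 3 µg/kg, where it was not called (adjusted p = 0.182), -1.01 ± 0.23 at 10 µg/kg (adjusted p = 0.00252) and -1.82 ± 0.24 at 30 µg/kg (adjusted p = 1.72e-06, edgeR). All 7 hepatocyte marker genes were lower at 30 µg/kg, with a median log2 fold change of -1.13 and a summed level of 65403, 100640.0 and 62076 CPM, against 124148, 162845 and 237064 CPM in vehicle livers. Their part in the lower Col18a1 was not tested.

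**Figure D4:**
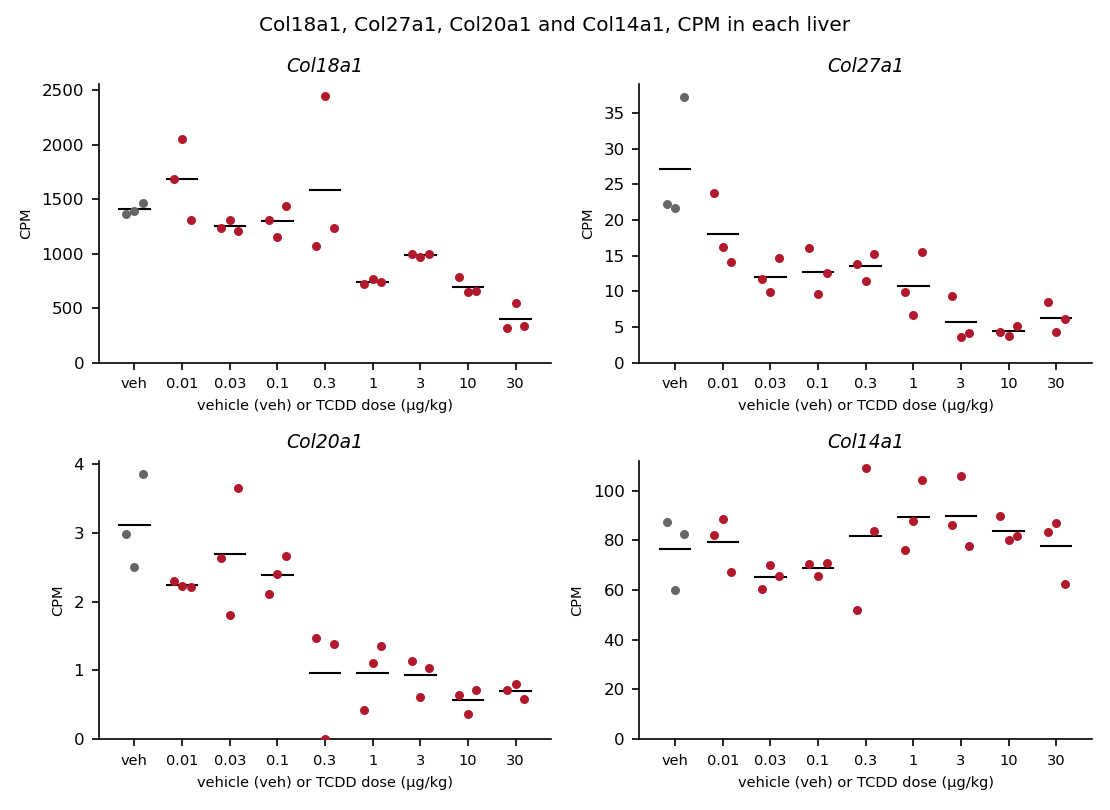
CPM of Col18a1, Col27a1, Col20a1 and Col14a1 in each liver (points) by group, on linear axes that start at 0, with the group mean as a line. Col18a1, Col27a1 and Col20a1 lie below all vehicle livers in every liver from 1 µg/kg upward. Col27a1 does so from 0.03 µg/kg, Col18a1 also at 0.03 µg/kg and Col20a1 also at 0.01 and 0.3 µg/kg, doses at which none of them was called, and Col14a1 overlaps vehicle at 30 µg/kg. The share of all genes below vehicle in every liver was counted at 30 µg/kg alone, where it was 25.9%. The 0.3 µg/kg livers include the shallow library, in which Col20a1 had 0 and 1 read equals 2.87 CPM.

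The remaining chains of the mixed class were low in abundance. Col7a1, of anchoring fibrils, averaged 0.259 CPM at 10 µg/kg and 0.791 CPM in vehicle (log2 fold change -1.57 ± 0.41, adjusted p = 0.00686, edgeR) and was not called at 30 µg/kg (adjusted p = 0.558, edgeR). The call at 10 µg/kg was lost without the second liver of that dose (adjusted p = 0.0535). Col15a1, related to Col18a1, averaged 6.84 CPM at 30 µg/kg and 6.09 CPM in vehicle, and the transmembrane collagen Col13a1 6.30 CPM at 30 µg/kg and 4.44 CPM in vehicle, with no call at any dose. Col23a1, another transmembrane collagen, averaged 0.554 CPM at 30 µg/kg and 0.272 CPM in vehicle (log2 fold change 1.04, adjusted p = 0.0581, edgeR). It was called at 30 µg/kg with RLE or upper-quartile factors (adjusted p = 0.0361 and 0.0376, edgeR) and over the rank of the dose (adjusted p = 0.000337, edgeR). Col8a1, Col8a2, Col25a1 and Col28a1 averaged 0.530, 0.509, 0.156 and 0.161 CPM in vehicle and were not called at any dose. Col17a1 had 60 counts in all libraries together, and Col26a1 had none.

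Set side by side per kb of exons, the chains changed places. Col18a1 averaged 57.0 ± 17.9 CPM per kb at 30 µg/kg and 201 ± 7.25 in vehicle (SD, n = 3 each). Col9a2 averaged 132 ± 22.4 at 30 µg/kg and 0.0143 ± 0.0132 in vehicle, and held rank 4 among the members at 3 µg/kg, rank 2 at 10 µg/kg and rank 1 at 30 µg/kg. The sum over all 44 members was 222 to 314 CPM per kb at 30 µg/kg and 235 to 259.7 in vehicle, which overlap. Col18a1 made up 14.5% to 27.4% of it at 30 µg/kg and 80.3% to 84.4% in vehicle. FACIT chains made up 52.7% to 53.7% at 30 µg/kg and 4.20% to 5.77% in vehicle. Their sum averaged 145 CPM per kb at 30 µg/kg and 12.5 in vehicle, of which Col9a2 alone was 132 at 30 µg/kg and 0.0143 in vehicle. Fibrillar chains made up 9.68% to 20.1% at 30 µg/kg and 5.14% to 7.37% in vehicle. Lengths join the exons of all annotated transcripts, which lowers the level of a gene with many long isoforms, such as Col1a2.

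**Figure D5:**
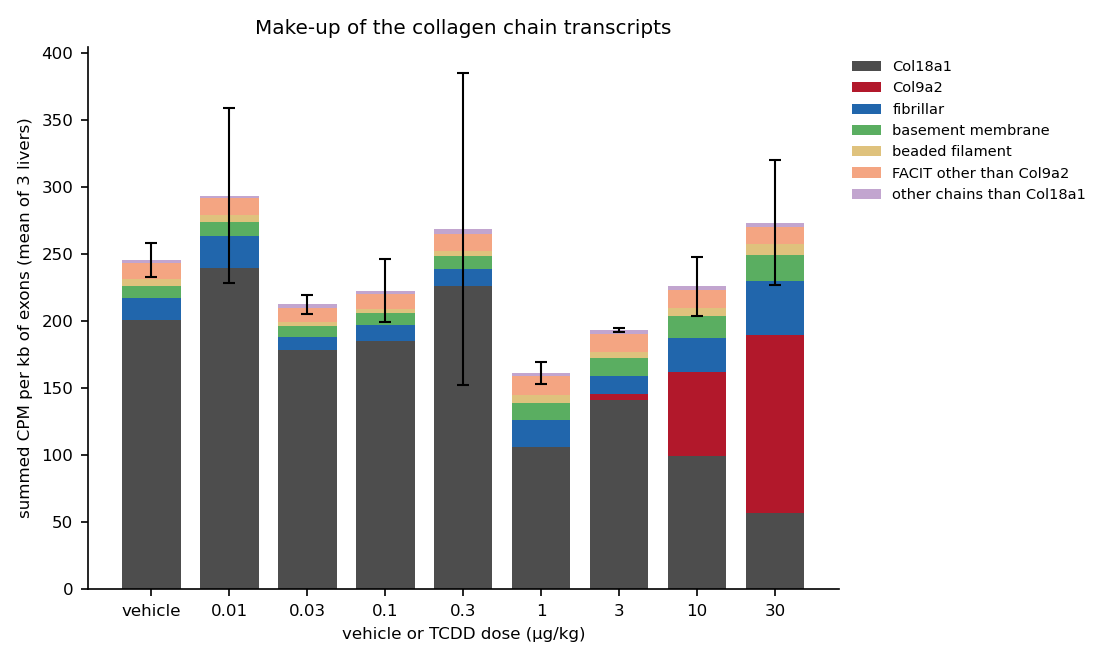
Summed CPM per kb of exons of all collagen chain genes by group, as stacked means of 3 livers, with the SD of the sum as a bar. Col18a1 makes up most of the sum in vehicle and Col9a2 is the largest piece at 30 µg/kg, while the sum is 273 ± 46.6 at 30 µg/kg and 246 ± 12.7 in vehicle.

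At 30 against 10 µg/kg, 1 chain was higher and 1 lower (3.2% of all genes called, 1.38% higher and 1.83% lower). These doses carry different index sets, so dose and index set cannot be told apart in this comparison. Col9a2 was higher at 30 µg/kg by 1.09 ± 0.25 on the log2 scale (adjusted p = 0.0176, edgeR). The log2 fold change of Col4a3 was -1.09 ± 0.29 (adjusted p = 0.0413, edgeR). The Col9a2 call was lost without the first 10 µg/kg liver (adjusted p = 0.149), the second (0.0557) or the first 30 µg/kg liver (0.121). The Col4a3 call was lost without the first or the second 10 µg/kg liver (adjusted p = 0.179 and 0.171) or the first or the third 30 µg/kg liver (0.169 and 0.281). Col4a4 differed by -0.99 ± 0.30 without a call (adjusted p = 0.0676, edgeR).

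Of the genes that process and crosslink collagen, 11 of 29 tested were higher at 30 µg/kg and 5 lower, with a median log2 fold change of 0.23. Of all tested genes 18% were higher and 19.4% lower. Lox, a lysyl oxidase that starts crosslinking, had 7.30, 1.80 and 5.58 CPM at 30 µg/kg, against 0.298, 0.105 and 0.401 CPM in vehicle livers (log2 fold change 4.11, adjusted p = 1.34e-06, edgeR). Loxl4, of the same family, had 0.713, 1.15 and 1.17 CPM at 30 µg/kg, against 17.98, 25.4 and 26.6 CPM in vehicle livers (log2 fold change -4.52, adjusted p = 6.60e-11, edgeR). Neither overlapped vehicle. Plod2, a lysyl hydroxylase, rose by 2.42 and Adamts14, which removes the N-terminal propeptide of procollagen, by 2.14 on the log2 scale (adjusted p = 0.000112 and 6.65e-05, edgeR). Loxl1 (0.86, adjusted p = 0.167) and Colgalt2 (-0.74, adjusted p = 0.163, edgeR) had the largest uncalled changes of that list.

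Of the collagen receptor and uptake genes, 5 of 7 tested were higher at 30 µg/kg and 0 lower, with a median log2 fold change of 1.01. Ddr1, a receptor tyrosine kinase for collagen, rose by 1.98, Mrc2, which takes up collagen fragments, by 1.59, Ddr2 by 1.06 and the leukocyte receptor Lair1 by 1.01 on the log2 scale. Itga10 (0.60, adjusted p = 0.0739) and Itgb1 (0.16, adjusted p = 0.385, edgeR), integrin subunits, were not called. Of 9 collagenases and inhibitors 8 were higher and 0 lower. For both lists the share over all tested genes was 18% higher and 19.4% lower. The collagenase Mmp13 had 28.4, 8.68 and 13.7 CPM at 30 µg/kg, against 0.410, 0.261 and 0.0401 CPM in vehicle livers. Mmp8, the collagenase of neutrophils, had 24.7, 6.22 and 25.9 CPM at 30 µg/kg, against 0.0373, 0 and 0 CPM in vehicle livers. Timp1, an inhibitor of such enzymes, had 5.37, 1.73 and 4.14 CPM at 30 µg/kg, against 0.336, 0.0523 and 0.160 CPM in vehicle livers. In all 3 the second 30 µg/kg liver was the lowest of its group, and none overlapped vehicle.

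Marker genes of cells that could supply these chains were read in the same libraries. At 30 µg/kg 18% of all tested genes were higher and 19.4% lower. Of 8 quiescent stellate cell genes, Reln was higher and Ngfr lower at 30 µg/kg, with sums of 353, 233 and 408 CPM at 30 µg/kg and 150.3, 138 and 162 CPM in vehicle livers and a median log2 fold change of 0.23. Reln, for a secreted matrix glycoprotein, made up much of those sums, with 255, 147 and 302 CPM at 30 µg/kg, against 67.8, 50.8 and 74.2 CPM in vehicle livers. Of 6 tested myofibroblast genes, Timp1, Lox and Tagln were higher, with sums of 53.1, 33.1 and 32.1 CPM at 30 µg/kg and 23.01, 24.9 and 24.4 CPM in vehicle livers, and the first 30 µg/kg liver had both the highest of these sums and the most Col1a1. Timp1 and Lox stand in other lists above as well. Acta2, the smooth muscle actin of activated stellate cells, had 7.42, 4.91 and 3.13 CPM at 30 µg/kg and 1.90, 5.23 and 2.17 CPM in vehicle livers, which overlap, and was not called (adjusted p = 0.146, edgeR). Postn and Myh11 were not called either. Postn had 257, 201 and 134 unscaled reads at 30 µg/kg, against 320, 193 and 310 in vehicle livers. At an unadjusted p below 0.05 (edgeR), 1 of the 6 genes was lower, as were 3597 of all 15121 tested genes. Of 7 portal fibroblast genes 4 were higher, with sums of 121 to 126 CPM at 30 µg/kg and 60.8 to 114 CPM in vehicle. Gas6 held most of the vehicle sums, with 2724, 998 and 1457 unscaled reads there, against 1194, 1516 and 1346 in the 30 µg/kg livers. Entpd2 went from 71, 42 and 63 unscaled reads in vehicle livers to 1014, 1221 and 702 in the 30 µg/kg livers. The group mean of the sums was largest for the 3 µg/kg livers (149 CPM) and was 123 CPM for those of 30 µg/kg.

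Of 7 bile duct genes 6 were higher at 30 µg/kg, a dose at which 18% of all tested genes were higher and 19.4% lower. The sums of the 7 were 336, 111 and 255 CPM at 30 µg/kg and 59.0, 42.3 and 57.5 CPM in vehicle livers. Spp1 made up most of these sums, with 6883, 2549 and 3819 reads at 30 µg/kg and 1297, 675 and 1141 in vehicle livers. The median log2 fold change of the 7 genes was 3.34. Sox9, the 1 without a call, had 159, 74 and 105 unscaled reads at 30 µg/kg, against 182, 101 and 235 in vehicle livers. In the 1 µg/kg livers it had 62, 43 and 51. At 1, 3 and 10 µg/kg and over the rank of the dose, 1 of the 7 genes was called as lower. Of all tested genes 8.21%, 4.89%, 11.2% and 23.3% were lower in these comparisons (edgeR). Of 7 sinusoidal endothelial genes 1, Lyve1, was lower, with sums of 192 to 301 CPM at 30 µg/kg and 208 to 273 CPM in vehicle, and of 6 Kupffer cell genes 1, Clec4f, was lower, with sums of 227 to 395 CPM at 30 µg/kg and 259.6 to 396 CPM in vehicle. All 7 neutrophil genes were higher, with sums of 48.9 to 116 CPM at 30 µg/kg and 1.20 to 2.61 CPM in vehicle. At 1 µg/kg, where Col4a3 and Col4a4 stepped up in all 3 livers, the neutrophil sums were 1091, 5.0 and 182 CPM, the Kupffer cell sums 1485, 388 and 939 CPM and the bile duct sums 51.3, 50.9 and 87.6 CPM. Spp1, with 767, 1336 and 1456 reads, made up most of those bile duct sums. The part of any of these cells in the collagen values was not tested.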

How the data were processed

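Gene counts per library were deposited by the authors as raw read counts. The submitters' processing notes name FastQC 0.11.2, cutadapt 1.4.1, TopHat 1.4.1, SAMtools 0.1.19, HTSeq 0.6.1 and DESeq. Neither the strand setting nor the annotation release of the counting was stated in the labels. The 5 HTSeq summary lines were left out: 5.62% to 11.9% of reads had no feature and 1.79% to 3.49% were ambiguous. Gene names and lengths came from GENCODE M21 (GRCm38).

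Counts of all 27 libraries were fitted in 1 model, without covariates, by edgeR 4.0.16 (R 4.3.3, limma 3.58.1) after its default low-count filter (minimum count 10), with TMM scaling, quasi-likelihood tests and Benjamini-Hochberg adjustment over all 15121 tested genes at a threshold of 0.05. The trend used the rank of the dose. DESeq2 1.42.0 was an alternative, beside other scalings, filters, a replicate block, and each replicate left out. The code was tested on simulated data. The members and lists were chosen with earlier results of these data known. Values per liver were given for up to 14 called chains of at least 1 CPM with the largest change, the 6 chains with the highest vehicle level per kb, and their partners. Other chains were named with means or counts to account for every member.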

Additional observations from a re-analysis of the deposited data

How the results depend on the processing

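Of 6204 values of single genes recomputed under other settings, 6074 kept their direction and side of the threshold, 75 lost a call, 55 gained one and 0 changed direction as a called value. Most of the 6204 belonged to results without a call in the main fit, and the 75 losses could arise only among called results. At 30 µg/kg against vehicle the count of called chains was 19, and 15 to 19 with 1 replicate left out. Those ranges were 0 to 1 at 0.01 µg/kg, 6 to 8 at 1 µg/kg, 5 to 6 at 3 µg/kg, 10 to 10 at 10 µg/kg, 0 to 5 at 30 against 10 µg/kg, 3 to 7 at 1 against 0.3 µg/kg and 15 to 21 over the rank of the dose. For 30 against 10 µg/kg, where 2 chains were called, the 6 libraries alone gave 0 and a replicate block gave 4. For 1 against 0.3 µg/kg, where 5 were called, the fit without the shallow library gave 3 and the 6 libraries alone gave 2. The trend within 0.3 to 10 µg/kg, a single index set with fewer libraries, the shallow one among them, called 4 chains in place of 19. Within the other index set, vehicle to 0.1 µg/kg and 30 µg/kg, it called 19. The shares of all genes called under these settings are not given here, so the counts do not single out the collagen chains. The cause of these moves was not tested. Replicate numbers did not pair the livers: same-numbered livers correlated between -0.33 and 0.34 in their deviations from group means (median 0.02), and 10 of 27 correlated best with their own number. With the block, 19 chains were called at 30 µg/kg against vehicle. Scaling by RLE or upper quartile raised the median of all genes at 30 µg/kg by 0.11 on the log2 scale. The 434011 counts of the second 0.3 µg/kg library limit what can be seen at that dose.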
